A study of Saccharomyces cerevisiae with 8 samples.

Results

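The 10 genes described here encode plasma membrane amino acid permeases of budding yeast: TAT1, TAT2, GAP1, AGP1, BAP2, BAP3, GNP1, HIP1, CAN1 and LYP1. They were chosen by name, not by their values, and all 10 were found among the 6256 probes of the array, with 1 probe of 2 spots each. Transcripts were read in a single colour on 8 arrays, of which 4 carried RNA of the pressure-sensitive mutant a924E1 and 4 RNA of KA31a, the strain it was derived from. Cultures grew for 48 h at 30 °C in YPD, a rich medium of 1% yeast extract, 2% peptone and 2% glucose, and the labels name no pressure treatment. The mutant is a single strain, and the mutated gene and the auxotrophic markers of both strains are not given in the sources used here.

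Yeast takes up amino acids through a family of related permeases that move their substrate together with protons across the plasma membrane. Some accept nearly any amino acid, and others are narrow. Amino acids outside the cell are sensed by the SPS complex, which switches on several permease genes through the factors Stp1 and Stp2. The quality of the nitrogen source acts on other permease genes, such as GAP1, through GATA factors. Many permeases are also removed from the membrane after ubiquitination by the ligase Rsp5. Tryptophan uptake is known to limit growth under hydrostatic pressure, which is the question behind the comparison of TAT2 in a pressure-sensitive strain. These arrays read transcripts and not permease protein.

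Median signal over local background was 5 to 112 intensity units on the mutant arrays and 15 to 182 on the parent arrays. Probes above background numbered 602 to 4704 on the mutant arrays and 1534 to 5272 on the parent arrays. To count as above background, a probe needed signal-to-noise of 3 or more in both spots. Mutants 5 and 7 and parent 8 were the dimmest arrays although scanned at a gain of 700 and not 600. Mutant RNA was hybridised in 1 slide column throughout and parent RNA in the other, and the effects of column and strain cannot be told apart. Mutants 1 and 3 differed by a mean squared log2 difference of 0.0289 and parents 6 and 8 by 0.0414, against 0.0552 to 0.314 and 0.0818 to 0.270 for the other pairs of each strain. Only the 582 probes above background on all 8 arrays entered these differences. The design text describes independent samples. If such a pair shared RNA, the number of samples would be overstated. With each closest pair averaged into 1 sample, 6 permeases passed, as with all arrays kept apart, and 18 instead of 25 of 92 genes in the related lists below. Of 6 a-specific mating genes 3 rose, 0 fell and 3 did not pass, and of 4 alpha-specific genes 0 rose or fell. Over all genes 12.7% were called higher and 14.0% lower. The summed linear level was 755 to 996 in the mutant and 623 to 707 in the parent for the a-specific list, and 255 to 297 in the mutant and 274 to 291 in the parent for the alpha-specific list. MF(ALPHA)1 and MF(ALPHA)2, the alpha pheromone genes, were above background on 0 of 8 arrays. The a pheromone genes MFA1 and MFA2 were above background on 0 mutant arrays and on 2 and 1 parent arrays. Of the other alpha-specific genes, SAG1 was above background on 2 mutant and 3 parent arrays, and STE3 on 0 and 2. STE2, BAR1 and ASG7 were the a-specific genes that rose, by 0.58, 0.49 and 0.92 (limma adjusted p = 0.00284, 0.0342 and 0.000500). MFA1, MFA2 and STE6 did not pass, at 0.05, 0.005 and 0.32. The labels name no mating type, and the part of these markers in the results was not tested.

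Of the 10 permeases, 4 rose in the mutant, 2 fell and 4 did not pass. GNP1, the glutamine permease, was 1.88-fold higher and GAP1, the general amino acid permease, 1.68-fold higher. TAT2, the high-affinity tryptophan permease, and CAN1, the arginine permease, were each 1.45-fold higher. TAT1, the lower-affinity permease of tryptophan and tyrosine, was 1.84-fold lower, and BAP2, a permease of branched-chain amino acids, 1.81-fold lower. Calls are limma's at a Benjamini-Hochberg adjusted p under 0.05, with all 6256 genes in the adjustment. In RNA of whole cultures, less RNA per cell and fewer cells that express a gene cannot be told apart. The same model called 26.6% of all genes, 12.7% higher and 14.0% lower. The median log2 difference was 0.11 over the 10 permeases, from -0.88 to 0.91, and 0.05 over all genes. For 6 permeases the 4 mutant levels did not overlap the 4 parent levels, as for 29.9% of all genes. Every one of these 6 calls ended when arrays were scaled by their 75th percentile or median and not by quantiles (limma, 0 of 10 called, 5 and 3 at an unadjusted p under 0.05), where 57 and 37 of all genes passed. Those 6 genes kept their direction in all 123 values of the alternatives that tested them. Since their strains do not overlap, dropping, averaging, blocking or weighting arrays could not turn a sign. Only a change of background correction, spot summary or scaling, or the authors' values, could.

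**Figure D1:**
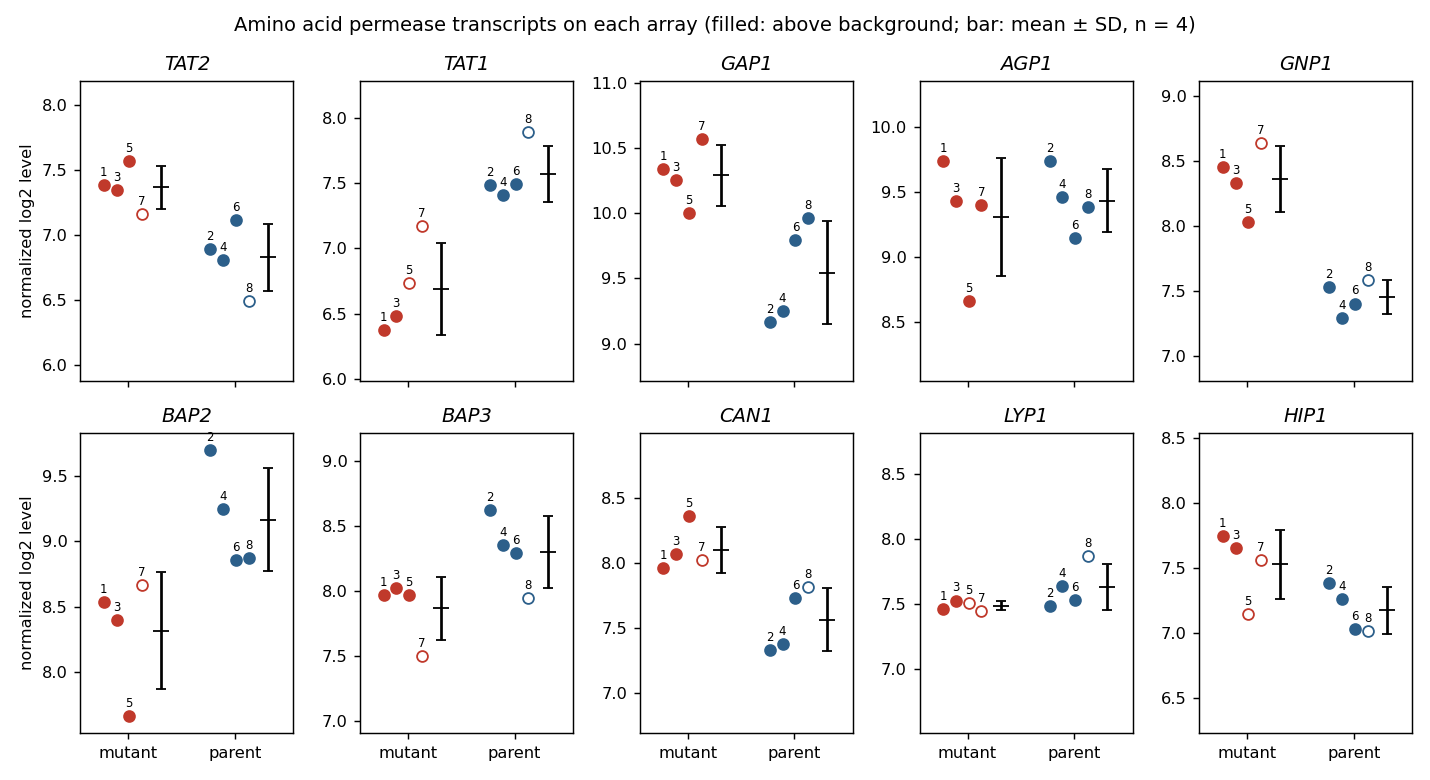
Normalized log2 level of each permease on the 4 mutant and 4 parent arrays, 1 panel per gene, with points numbered by replicate, filled where the probe was above background, and bars for the mean ± SD (n = 4). The strains do not overlap for TAT2, TAT1, GAP1, GNP1, BAP2 and CAN1.

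The aromatic permeases TAT2 and TAT1 moved in opposite directions. TAT2 is the main route of tryptophan at low concentrations and is known to be degraded under pressure and starvation. Its normalized log2 level was 7.39, 7.35, 7.57 and 7.16 on mutants 1, 3, 5 and 7, against 6.89, 6.81, 7.12 and 6.49 on parents 2, 4, 6 and 8. The lowest mutant array stood just above the highest parent array. The estimate for TAT2 was 0.54 ± 0.14 (SE, 4 arrays per strain, adjusted p = 0.0159 by limma). Its probe passed the background limit on 3 arrays of each strain, all but mutant 7 and parent 8. The difference was 0.43 among arrays of gain 600 and 0.87 among those of gain 700. Arrays of gain 700 are mutants 5 and 7 and parent 8. Mutant minus parent within the 4 slide rows ran from 0.45 to 0.67. The 0.67 was mutant 7 against parent 8, which both read 7.5 units before scaling.

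The rise of TAT2 is relative to the rest of each array. Before any scaling, its signal over background was 169.5, 222.5, 45.5 and 7.5 units on mutants 1, 3, 5 and 7, against 171.5, 170.0, 76.5 and 7.5 units on parents 2, 4, 6 and 8. Those signals overlap between strains. Divided by each array's own median signal they came to 2.07, 1.99, 2.84 and 1.50 in the mutant, against 1.05, 0.934, 1.42 and 0.500 in the parent. On that ratio the strains did not overlap, but the lowest mutant array, at 1.50, stood just above parent 6 at 1.42. That array was mutant 7, where TAT2 was not above background and the array's median signal was 5 units. The share of all genes apart on this ratio was not computed.

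TAT1 carries tyrosine, tryptophan and branched-chain amino acids, and its gene is a target of the SPS pathway. Its log2 level was 6.38, 6.48, 6.74 and 7.17 on mutants 1, 3, 5 and 7, against 7.49, 7.41, 7.50 and 7.89 on parents 2, 4, 6 and 8. All mutant arrays were below all parent arrays, and in each strain the dimmest array was the highest. The estimate for TAT1 was -0.88 ± 0.17 (SE, 4 arrays per strain, adjusted p = 0.00345 by limma). Its probe passed the background limit on 2 mutant arrays and 3 parent arrays. It also stood lower before scaling, at 33.5 and 58.0 units on mutants 1 and 3, against 327.0, 332.5 and 117.0 units on the parent arrays of the same gain. The difference was -1.03 within gain 600 and -0.94 within gain 700. The gain 700 arrays are mutants 5 and 7 and parent 8, and TAT1 was above background on none of them. In the reference assembly R64 a noncoding gene, TBRT, overlaps TAT1. The sources used here give no probe sequence, so RNA of these genes cannot be told apart.

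Taken within each array, TAT2 minus TAT1 was 1.01, 0.86, 0.83 and -0.01 log2 on mutants 1, 3, 5 and 7, against -0.60, -0.60, -0.38 and -1.40 on parents 2, 4, 6 and 8. Its own value says nothing of which gene is the more abundant. The mean difference changed by 1.42 between strains, and by 1.52 without scaling between arrays. The strains had to be apart on this measure, since TAT2 was higher and TAT1 lower on every mutant array than on any parent array. Because an offset of 50 units was added before taking logs, an array's brightness does not cancel fully in such a difference. On mutant 7 and parent 8 neither gene was above background. This pair and 3 others below were formed by substrate class with earlier results of these data known, and are given with no test.

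**Figure D2:**
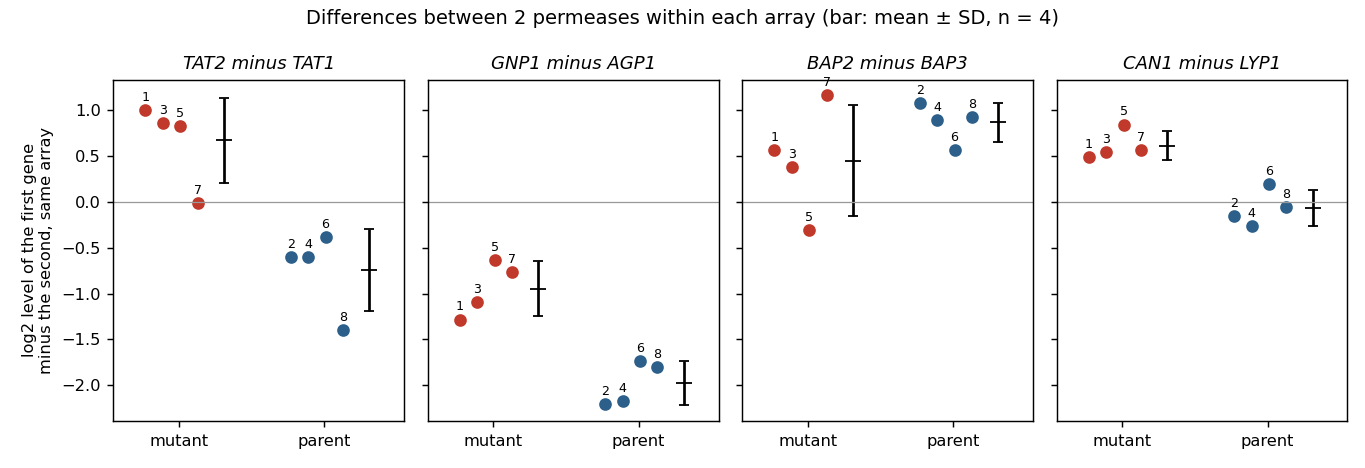
Log2 level of 1 permease minus another on the same array, for 4 pairs that share a class of substrates, with points numbered by replicate and bars for the mean ± SD (n = 4). The strains do not overlap for TAT2 minus TAT1, GNP1 minus AGP1 and CAN1 minus LYP1, and they overlap for BAP2 minus BAP3.

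The profile of TAT2 over the 8 arrays was most like those of SGF29, INA22, DNL4, CYS3 and PSY4. Likeness was the mean absolute difference between profiles after each gene's own mean was subtracted, over 4477 genes above background on at least 4 arrays. It was 0.06 to 0.08 log2 units for these 5 genes. SGF29 encodes a subunit of the SAGA complex, DNL4 a DNA ligase of end joining and CYS3 cystathionine gamma-lyase. Among the permeases CAN1 was the nearest to TAT2, at 0.19, but it ranked only 481 against the 4477 genes.

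The permeases of broad range did not move together. GAP1 takes up nearly all amino acids and is known to be strongest on poor nitrogen sources. Its log2 level was 10.34, 10.26, 9.999 and 10.57 on mutants 1, 3, 5 and 7, against 9.16, 9.25, 9.80 and 9.96 on parents 2, 4, 6 and 8. It was above background on all 8 arrays, and mutant 5 stood only just above parent 8. GAP1 rose by 0.75 ± 0.19 (SE, 4 arrays per strain, adjusted p = 0.0128 by limma). At gain 600 it was brighter in the mutant even before scaling, at 2386 and 3209 units against 1321.5, 1636 and 869 units in the parent. At gain 700 GAP1 was not brighter on both mutant arrays, at 487.5 and 189 units on mutants 5 and 7 against 305.5 on parent 8. The difference was 0.90 within gain 600 and 0.32 within gain 700. The 2 spots of GAP1 on 1 array differed by 0.08 to 1.01 log2 units.

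GNP1 carries glutamine and several other neutral amino acids. Its log2 level was 8.45, 8.33, 8.03 and 8.63 on mutants 1, 3, 5 and 7, against 7.53, 7.29, 7.40 and 7.59 on parents 2, 4, 6 and 8. Here the strains were well apart, and of the 10 permeases it had the smallest adjusted p. GNP1 rose by 0.91 ± 0.14 (SE, 4 arrays per strain, adjusted p = 0.000623 by limma), by 0.98 within gain 600 and by 0.75 within gain 700. It was above background on 3 arrays of each strain, all but mutant 7 and parent 8. Before scaling it read 508 and 634 units on mutants 1 and 3, against 341.0, 296.5 and 108.0 units on the parent arrays of that gain. At gain 700 GNP1 read 79.5 and 38.5 units on mutants 5 and 7, against 38.5 on parent 8.

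AGP1, the relative of GNP1 for asparagine, glutamine and many others, is an SPS target known for its low affinity and broad range. Its log2 level was 9.73, 9.43, 8.66 and 9.40 on mutants 1, 3, 5 and 7, against 9.73, 9.46, 9.14 and 9.38 on parents 2, 4, 6 and 8. The strains overlapped, and mutant 5 alone was below every parent array. AGP1 differed by -0.12 with a 95% interval from -0.58 to 0.33 (limma adjusted p = 0.700). Its sign turned to 0.09 without mutant 5. Within arrays, GNP1 minus AGP1 ran from -1.28 to -0.63 log2 in the mutant and from -2.20 to -1.74 in the parent. The change was 1.03, and the strains did not overlap. Since AGP1 differed by only -0.12, this mostly repeats the rise of GNP1, which was itself apart between strains. Probes of such closely related genes may bind each other's transcripts.

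Of the branched-chain pair, BAP2 fell and BAP3 did not pass. Both import leucine, isoleucine and valine, and both genes are SPS targets. The log2 level of BAP2 was 8.54, 8.40, 7.66 and 8.67 on mutants 1, 3, 5 and 7, against 9.70, 9.25, 8.86 and 8.87 on parents 2, 4, 6 and 8. The spread within each strain was wide, but the strains did not overlap. The estimate for BAP2 was -0.85 ± 0.24 (SE, 4 arrays per strain, adjusted p = 0.0199 by limma). It was -0.80 within gain 600 (adjusted p = 0.0631) and -0.71 within gain 700, and without parent 4 the call ended at -0.83 (adjusted p = 0.0528). Over all alternatives its adjusted p ran from 0.000593 to 0.611. In R64, BAP2 and TAT1 are neighbours on chromosome II, and both fell.

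BAP3 had log2 levels of 7.97, 8.02, 7.97 and 7.50 on mutants 1, 3, 5 and 7, against 8.62, 8.35, 8.29 and 7.94 on parents 2, 4, 6 and 8. Parent 8, where BAP3 was not above background, overlapped the mutant. BAP3 differed by -0.44 with a 95% interval from -0.79 to -0.08 (limma adjusted p = 0.0676). It passed within gain 600 (-0.42, adjusted p = 0.0436) and with slide row as a block (adjusted p = 0.0146), in a range of 0.00663 to 0.926 over its alternatives. BAP2 minus BAP3 within arrays changed by -0.42 between strains, which overlapped.

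Among the basic amino acid permeases CAN1 rose, and LYP1, the lysine permease, did not pass. The log2 level of CAN1 was 7.96, 8.07, 8.36 and 8.02 on mutants 1, 3, 5 and 7, against 7.33, 7.38, 7.73 and 7.82 on parents 2, 4, 6 and 8. Parents 6 and 8 came close to the mutant, and parents 2 and 4 stood lower. CAN1 rose by 0.54 ± 0.14 (SE, 4 arrays per strain, adjusted p = 0.0149 by limma), by 0.53 within gain 600 and by 0.37 within gain 700. Before scaling CAN1 read 322.5, 511.5, 113.5 and 22.0 units on mutants 1, 3, 5 and 7. Parents 2, 4, 6 and 8 read 281.5, 329.5, 147.0 and 48.0 units, so these signals overlapped between strains. The probe of CAN1 was not above background on mutant 7 and parent 8. Without parent 4 its adjusted p was 0.0549, in a range of 0.000531 to 0.809 over its alternatives. In R64 its neighbour on chromosome V is AVT2, a vacuolar transporter gene that fell by 1.00.

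LYP1 had log2 levels of 7.46, 7.53, 7.51 and 7.45 on mutants 1, 3, 5 and 7, against 7.48, 7.64, 7.53 and 7.87 on parents 2, 4, 6 and 8. The strains overlapped, with parent 8 the highest. LYP1 differed by -0.14 with a 95% interval from -0.38 to 0.10 (limma adjusted p = 0.383). CAN1 minus LYP1 was 0.49 to 0.85 log2 on the mutant arrays and -0.26 to 0.20 on the parent arrays. The change was 0.68, and the strains did not overlap. With LYP1 at -0.14, this mostly repeats the rise of CAN1, which was itself apart between strains.

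HIP1, the high-affinity histidine permease, read higher in the mutant without passing. Its log2 level was 7.75, 7.65, 7.15 and 7.56 on mutants 1, 3, 5 and 7, against 7.39, 7.26, 7.03 and 7.02 on parents 2, 4, 6 and 8. Mutant 5, where HIP1 was not above background, lay among the parent arrays. HIP1 differed by 0.35 with a 95% interval from 0.03 to 0.67 (limma adjusted p = 0.101). It passed without mutant 5 at 0.48 (adjusted p = 0.0148), with slide row as a block (0.0392), with gain as a block (0.0356) and within gain 600 (0.0360), in a range of 0.000417 to 0.837 over its alternatives.

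**Figure D3:**
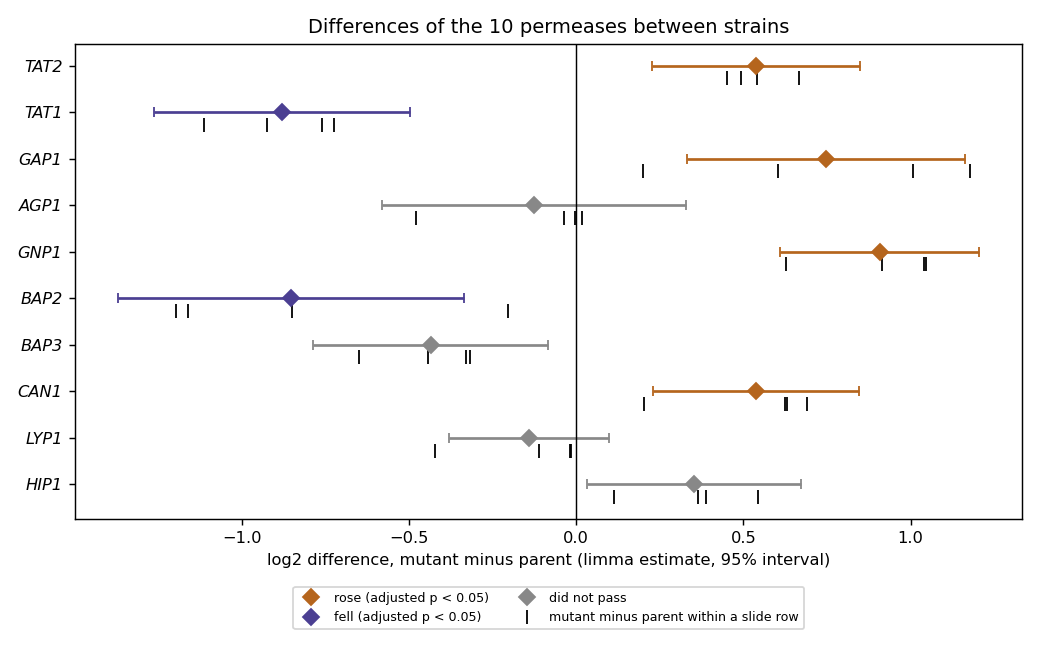
Log2 difference of each permease, mutant minus parent, as limma's estimate (diamond) with its 95% interval, and below it the difference within each of the 4 slide rows (ticks). All 4 rows have the sign of the estimate for every permease except AGP1, where 3 rows are below 0 and 1 is above. For the called permeases this had to be so, since their strains do not overlap.

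The remaining amino acid permeases of the plasma membrane gave no rise. Among 9 such genes the test called 3 lower and 0 higher, against 14.0% and 12.7% of all genes. The median log2 difference was -0.18. DIP5, the permease of glutamate and aspartate, had log2 levels of 7.33, 7.26, 6.68 and 7.07 on mutants 1, 3, 5 and 7, against 7.90, 8.29, 7.84 and 7.74 on parents 2, 4, 6 and 8. Its estimate was -0.86 ± 0.16 (SE, 4 arrays per strain, adjusted p = 0.00273 by limma), and the strains did not overlap. SAM3, which imports S-adenosylmethionine, differed by -0.57 (limma adjusted p = 0.0199) and MUP1, the high-affinity methionine permease, by -0.51 (limma adjusted p = 0.0343). The call of MUP1 ended without mutant 5, mutant 7, parent 2, parent 4 or parent 8 (adjusted p = 0.0504 to 0.0841) and within gain 600 (-0.24, adjusted p = 0.171), in a range of 0.0205 to 0.658 over its alternatives. The call of SAM3 ended without parent 2 (adjusted p = 0.0506), without parent 4 (0.0628) and within gain 600 (0.0890), in a range of 0.00164 to 0.75 over its alternatives. PUT4, the proline permease, was above background on all 8 arrays and differed by 0.08. AGP3 at 0.20, AGP2 at -0.18, MMP1 at -0.25 and MUP3 at -0.07 did not pass, and ALP1 was above background on 0 of 8 arrays. MUP3 and MMP1 were above background on 0 mutant arrays, so their mutant levels are only bounds.

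Over the other permeases and 9 related lists together, 9 of 92 genes were called higher and 16 lower, against 12.7% and 14.0% of all genes. Peptides are a further source of amino acids in rich medium. Of 4 peptide transporters 2 rose, 0 fell and 2 did not pass. PTR2, the transporter of small peptides and an SPS target, had log2 levels of 10.97, 10.91, 10.34 and 10.76 on mutants 1, 3, 5 and 7, against 8.43, 9.79, 9.997 and 9.90 on parents 2, 4, 6 and 8. It rose by 1.22 ± 0.30 (SE, 4 arrays per strain, adjusted p = 0.0113 by limma), or 2.33-fold, and by 0.85 without parent 2, the lowest array. On parent 2 the 2 spots of PTR2 read 1652 and 297 units over background. The call ended within gain 600 (1.54, adjusted p = 0.0667), and the difference was 0.65 within gain 700. OPT2, an oligopeptide transporter, rose by 0.52 (adjusted p = 0.00834).

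Most genes of the SPS sensor pathway did not pass. Among 12 genes the test called 1 higher and 1 lower, against 12.7% and 14.0% of all genes. The median log2 difference was 0.10. The sensor SSY1 differed by -0.22, and the transcription factors STP1 by 0.16 and STP2 by 0.13. PTR3, a scaffold of the sensor, fell by 0.37 (limma adjusted p = 0.0137) and GRR1, an F-box protein that acts downstream of it, rose by 0.49 (adjusted p = 0.00694). The call of PTR3 ended without parent 6 (-0.33, adjusted p = 0.0544) and with the closest pairs averaged (0.0535). That of GRR1, above background on 2 mutant and 3 parent arrays, ended within gain 600 (0.40, adjusted p = 0.0615). Of the 9 regulators of nitrogen catabolite repression, which include the GATA factors GLN3 and GAT1, 0 passed in either direction (limma, median -0.01).

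For permease exit, sorting and turnover, the test called 3 of 19 genes lower and 1 higher, against 14.0% and 12.7% of all genes. The median was -0.05. RSP5, the ubiquitin ligase that marks Tat2 and other permeases, differed by 0.07, and its adaptors BUL1 by 0.06 and BUL2, above background on 0 mutant arrays, by -0.09. SHR3, the chaperone that lets amino acid permeases leave the endoplasmic reticulum, differed by -0.28, and the kinase NPR1, which stabilises several permeases, by -0.18. PAR32, an inhibitor of ammonium transporters, was 1.92-fold lower (limma adjusted p = 0.00017). LST8, a subunit of the TOR complexes, differed by -0.74 (adjusted p = 0.00119) and LST7, needed for sorting of Gap1, by -0.72 (adjusted p = 0.0114). DOA4, the deubiquitinase of the endosome, rose by 0.47 (adjusted p = 0.00694).

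Among 9 genes of the tryptophan branch and the shared aromatic pathway the test called 3 lower and 0 higher. Over all genes 14.0% were called lower and 12.7% higher. Of the 9 genes 8 read lower, with a median of -0.34, as did 2650 of all 6256 genes. TRP3 fell by 0.54 (limma adjusted p = 0.00829) and ARO2, chorismate synthase, by 0.60 (adjusted p = 0.00726). ARO4 passed at -0.35 (adjusted p = 0.0443) but was above background on 0 mutant and 2 parent arrays, so its mutant level is only a bound and no fold is given. TRP1 was above background on 3 mutant and 4 parent arrays and differed by -0.34 (adjusted p = 0.0566). Of 4 genes of aromatic amino acid breakdown 1 rose and 1 fell. ARO10, the decarboxylase of the Ehrlich pathway, had log2 levels of 7.18 to 7.31 in the mutant and 8.94 to 9.07 in the parent. It was 3.36-fold lower (adjusted p = 4.29e-07), and was called under every alternative that tested it. ARO80, the activator of ARO9 and ARO10, rose by 0.40 (adjusted p = 0.0370). The call of ARO4 ended without mutant 1, 3 or 5 or parent 4 or 6, and that of ARO80 without any single array except mutant 5.

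Among 15 vacuolar amino acid transporters the test called 2 higher and 3 lower, against 12.7% and 14.0% of all genes, and the median was 0.01. ERS1 rose by 0.79 (limma adjusted p = 0.00733) and AVT1, which carries neutral amino acids into the vacuole, by 0.60 (adjusted p = 0.0149, but 0.0955 with the closest pairs averaged). AVT2 was 2.00-fold lower (adjusted p = 0.000168) and AVT3, which exports neutral amino acids from the vacuole, 1.67-fold lower (adjusted p = 0.00114). In general amino acid control 1 of 5 genes rose and 1 fell. GCN20, a partner of Gcn1, rose by 0.68 (adjusted p = 0.00102) and GCN3, a subunit of translation factor eIF2B, fell by 0.56 (adjusted p = 0.0486). The call of GCN3 ended without mutant 1, 3 or 5 or parent 2 or 8, at -0.37 without parent 8. Among 6 genes of the plasma membrane proton pump and its regulators, PMP1, a small subunit, fell by 0.52 (adjusted p = 0.0113, but 0.0661 with the closest pairs averaged) and HRK1, an activating kinase, rose by 0.45 (adjusted p = 0.0220, but 0.0680 without parent 4 and 0.0599 without parent 8). The pump PMA1, whose gradient drives the permeases, differed by 0.13 (adjusted p = 0.570).

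**Figure D4:**
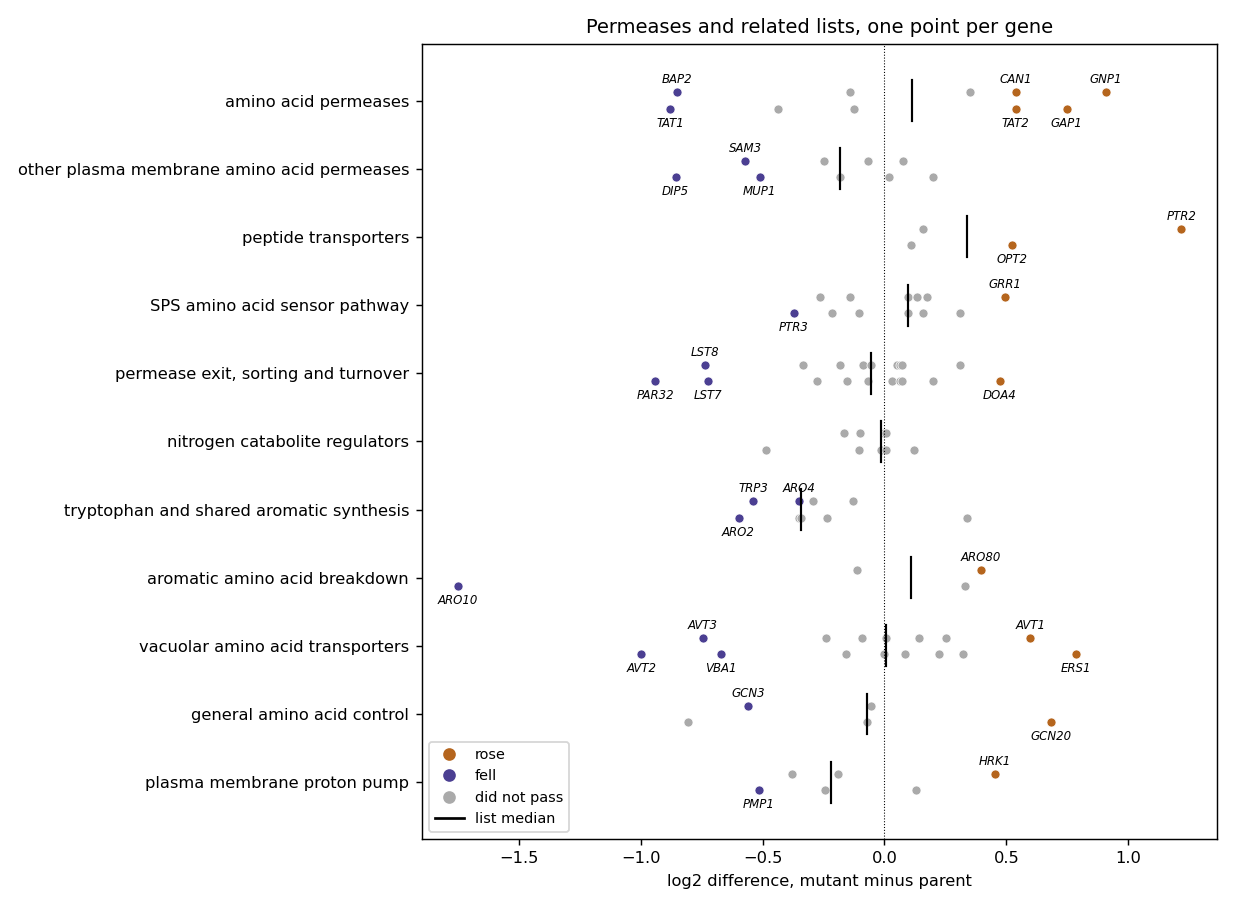
Log2 difference, mutant minus parent, for each of the 10 permeases and the genes of 10 related lists, 1 point per gene, coloured where limma's adjusted p was under 0.05, with the list median as a black line. The permeases spread to both sides of 0, and the lowest point is ARO10 at -1.75.

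**Figure D5:**
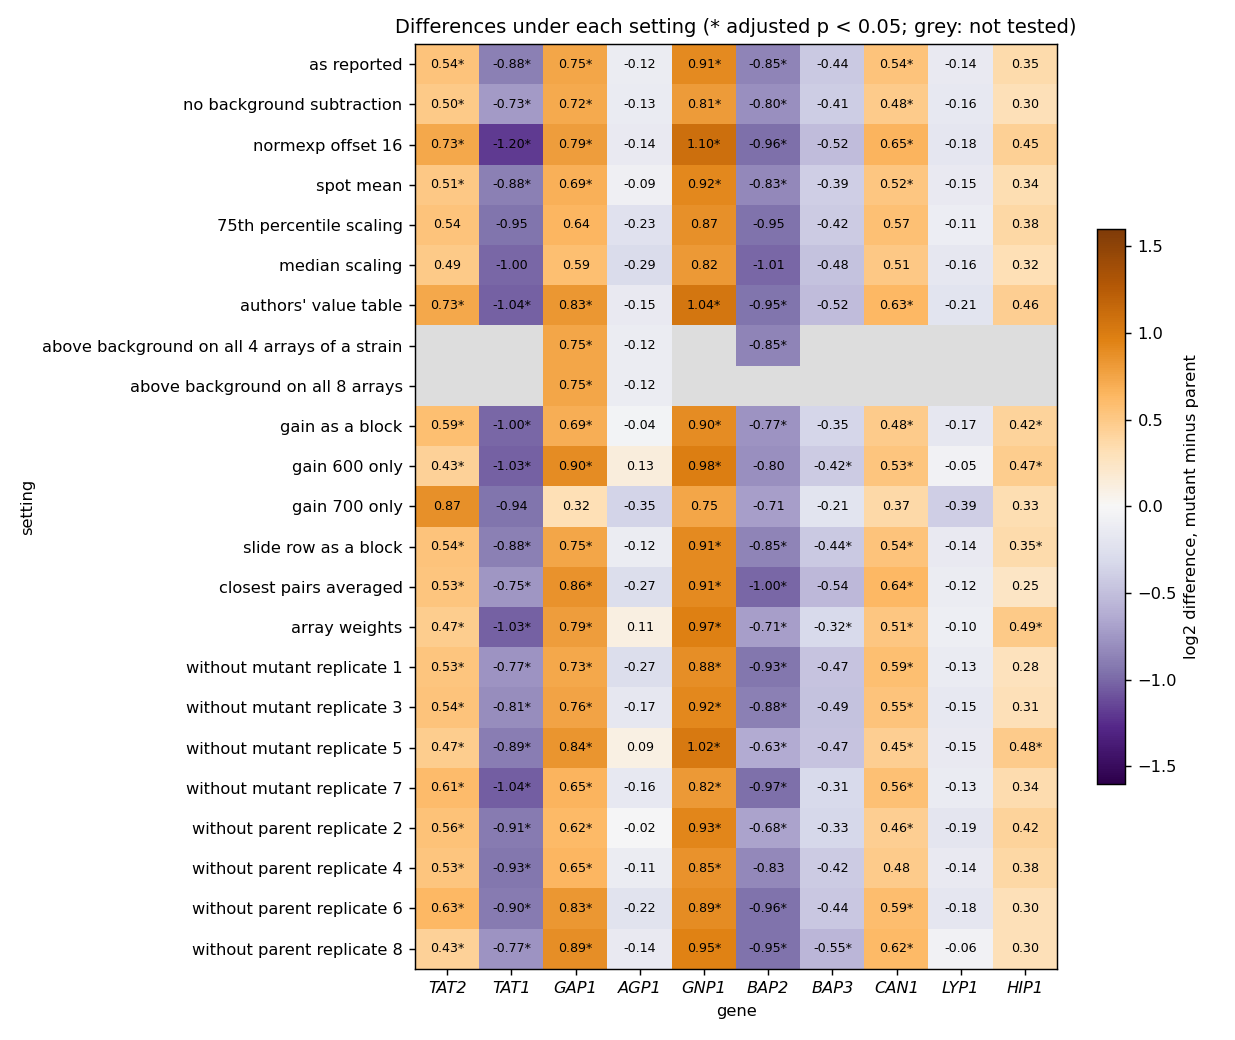
Log2 difference of each permease (columns), mutant minus parent, as reported and under 22 alternative settings (lines), with a star where limma's adjusted p was under 0.05 and grey where the filter left the gene out. The 6 called permeases keep their sign throughout, and no permease has a star with 75th percentile or median scaling or within gain 700. For these 6, settings that only drop, average, block or weight arrays could not turn the sign.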

How the data were processed

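Cy5-labelled cRNA was made from 0.5 µg of total RNA per sample, per the labels' protocols. Per the file headers, arrays were scanned at 635 nm and read with GenePix Pro 6.1.0.4, and the deposited tables give unnormalized linear intensity per spot, a signal-to-noise score and the percent of saturated pixels. The authors also deposited 1 intensity value per probe and array. By its values that table equals quantile-normalized spot medians less about 32.3 units, linear and not centred. Its column medians on mutants 1, 3, 5 and 7 were 75.2, 75.1, 78.4 and 79.4, and on parents 2, 4, 6 and 8 they were 76.6, 76.1, 77.0 and 75.5. How the authors chose that constant is unknown.

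Background correction of spot medians used normexp with an offset of 50 (limma 3.58.1, R 4.3.3), followed by log2, quantile normalization and the mean of 2 spots. The offset makes folds of dim genes too small. The 4 mutant and 4 parent arrays were compared by lmFit and eBayes, two-sided, without covariates, with Benjamini-Hochberg adjustment over 6256 genes and calls at 0.05. The number of arrays limits the precision. A gene above background on 0 arrays of a strain has only a bound there. Its log2 difference is that of the measured means, and no fold is given for it, since no bound exceeded 1. Array names were matched to R64, which lists 5756 of the systematic names. The genes named were, by rule, the 10 permeases, the 9 other permeases, up to 4 called members of each related and mating-type list by adjusted p, and TRP1, SSY1, STP1, STP2, SHR3, RSP5, BUL1, BUL2, NPR1 and PMA1 whether called or not. The 5 genes most like TAT2 were named by the measure in the text. The other mating-type genes and VBA1 were named outside the rule. Differences between pairs of permeases and within slide rows were added after seeing the data. Alternatives changed the background correction, spot summary, scaling, filter, blocks, weights and arrays used. The members and lists were chosen with earlier results of these data known. The steps were tested on simulated data with the same noise settings on every array and changes planted only in genes brighter than the median. That test cannot show how well changes in dim genes, or on arrays of unequal noise, are called.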

Additional observations from a re-analysis of the deposited data

Results flagged for a closer look

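In 8 of 106 groups of 4 arrays (53 genes named by rule, each strain apart), 1 array stood far from the other three by Dixon's test, where chance gives about 5%. BAP3 was at 7.50 on mutant 7, below 7.97 to 8.02 on the other mutant arrays. PTR2 was at 8.43 on parent 2, below 9.79 to 9.997 on the other parent arrays. PAR32 was at 8.01 on parent 2, below 8.29 to 8.32. ARO80 was at 7.26 on mutant 7, above 6.85 to 6.88, and GCN3 at 6.81 on mutant 7, above 6.33 to 6.39. GCN20 was at 7.85 on mutant 5, above 7.51 to 7.56, and BUL2 at 5.77 on mutant 5, below 6.18 to 6.22. ALP1 was at 6.03 on parent 6, above 5.82 to 5.84, and was above background on no array. All values are normalized log2 levels.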

How the results depend on the processing

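The 30 called permeases and related genes named here kept their direction in all 611 values of the alternatives, and 136 of these values no longer passed. For genes whose strains do not overlap, dropping, averaging, blocking or weighting arrays could not turn a sign. Called permeases (6 as reported) numbered 0 with 75th percentile scaling, 0 with median scaling and 0 within gain 700 (limma, 5, 3 and 2 at an unadjusted p under 0.05). They numbered 2 of 3 tested when every array of a strain (4) had to pass the background limit and 1 of 2 when all 8 had to, where fewer genes were tested. Over all genes (1667 as reported) these settings gave 57, 37, 45, 738 and 298 calls, and array weights gave 3034. For the related lists (25 as reported) they gave 1, 1, 1, 8 and 1, and array weights 47. With the closest pairs averaged 18 related genes passed, and PTR3, ARO4, ARO80, AVT1, VBA1, GCN3 and PMP1 lost their calls. VBA1 is a vacuolar transporter gene called lower as reported. The cause of the losses under scaling was not tested. Gain 700 leaves 2 mutant arrays and 1 parent array, so the lone parent array is assumed to vary like the mutant arrays. Leaving out 1 array gave 4 to 7 called permeases, 1205 to 1701 called genes and 20 to 26 called related genes. The median of all genes was 0.21 with 75th percentile scaling and 0.15 with median scaling.

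Signs turned in 29 values, of which 0 passed the test, all of genes not called as reported. ALP1 turned to -0.0043 without background subtraction, -0.010 with spot means, -0.0056 with gain as a block, -0.10 within gain 600, -0.10 with array weights and -0.055 without mutant 7. With 75th percentile and median scaling PUT4 turned to -0.035 and -0.092, MUP3 to 0.093 and 0.036, MMP1 to 0.11 and 0.049, and BUL2 to 0.22 and 0.16. AGP1 turned to 0.13 within gain 600, 0.11 with array weights and 0.089 without mutant 5. BUL2 turned to 0.016 within gain 600, 0.027 with array weights and 0.024 without mutant 5, NPR1 to 0.037 within gain 600 and 0.059 with array weights, and MUP3 to 0.027 without mutant 5. Within gain 700 RSP5 turned to -0.10, BUL1 to -0.18 and PMA1 to -0.058. BUL1 turned to -0.0085 with the closest pairs averaged, -0.015 without mutant 1 and -0.0063 without parent 6. Leaving out 1 array gave -0.27 to 0.089 for AGP1, -0.21 to 0.027 for MUP3, -0.055 to 0.069 for ALP1, -0.015 to 0.14 for BUL1 and -0.13 to 0.024 for BUL2. The strains share no replicate numbers, so the labels pair no samples. Slide rows hold 1 mutant and 1 parent array each, and as a block they pair the arrays by position. The model as reported has no such block. That block gave 8 called permeases, 1786 called genes and 29 called related genes. Dim arrays limit what can be seen, since 7 of the 10 permeases were below background on at least 1 array of each strain.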
